A study of Rattus norvegicus with 6 samples.

Results

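miR-221 and miR-222 were followed on 6 one-colour Agilent arrays that measure miRNAs in the terminal hindgut of fetal rats, as 4 mature miRNAs among the 758 on the array. The members were chosen by name, as every miRNA probe whose design name has the stem miR-221 or miR-222, on either arm, which gave miR-221-3p, miR-221-5p, miR-222-3p and miR-222-5p. Each has 2 probes, and each probe has 8 spots on every array, so that 8 of 1806 probes belong to these 4 miRNAs. The rule reads the processed signal, the total gene signal and the mark for well above background of each probe, but no measured value kept or dropped a member. The pair was taken up with earlier results of these data known, among them the difference of miR-221-3p between the groups, so the values of that contrast are a description and support nothing further.

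The 3 ARM samples came from fetuses with an anorectal malformation (ARM) of Sprague Dawley dams dosed by stomach tube on gestational day 10 with 125 mg/kg of ethylenethiourea (ETU), which blocks thyroid hormone synthesis and is used in rats to produce malformations of the caudal end. The 3 control samples came from healthy fetuses of dams given distilled water. All fetuses were taken on embryonic day 20, and 1 cm of terminal hindgut was removed, a piece that can hold epithelium, smooth and striated muscle, nerve, vessel and blood. The labels give neither the dam of a sample nor the number of fetuses in it, so a p-value here covers the spread between these samples alone, which may be technical, and exposure to ETU cannot be told apart from the malformation.

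miR-221 and miR-222 are neighbouring genes of the X chromosome that are made as a cluster. Their 3p arms carry the same seed, the stretch of a miRNA that pairs with target mRNAs, and in human cells they repress KIT, the receptor for stem cell factor, and CDKN1B, the cell cycle inhibitor p27. In the gut wall, KIT is required by the interstitial cells of Cajal, the pacemaker cells of smooth muscle, and by mast cells. The pair is also known from endothelium and vascular smooth muscle.

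The mature sequences are shown because the seeds decide which members can share targets. They are from RefSeq (build GRCr8), plus strand of chromosome X, written 5′ to 3′ with bases 2 to 8, the seed, in capitals. All 4 members had an entry.
miR-221-3p (chrX:6023246-6023268): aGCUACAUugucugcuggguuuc
miR-222-3p (chrX:6022682-6022702): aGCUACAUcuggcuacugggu
miR-221-5p (chrX:6023206-6023228): aCCUGGCAuacaauguagauuuc
miR-222-5p (chrX:6022642-6022662): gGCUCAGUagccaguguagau

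The 3p arms are identical over their first 8 bases and differ after them, apart from a shared run of 6 bases near the 3′ end. The letters opposite their seed are AUGUAGC. The 5p arms have different seeds and share a run of 7 bases. Among the 694 mature rat miRNAs of the RefSeq table, 686 of which carry the name of a miRNA on the array, no other has the seed of the 3p arms or either of the seeds of the 5p arms. The hairpins lie 458 bases apart on the plus strand, miR-222 first, and both lie within the spans of LOC120099382 and LOC120099384, which RefSeq lists as long non-coding RNAs. In the hairpins the 2 mature arms are in capitals, 5p before 3p.
Mir222 (chrX:6022621-6022723): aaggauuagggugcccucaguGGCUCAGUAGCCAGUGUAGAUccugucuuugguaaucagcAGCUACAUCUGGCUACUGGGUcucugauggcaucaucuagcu
Mir221 (chrX:6023182-6023290): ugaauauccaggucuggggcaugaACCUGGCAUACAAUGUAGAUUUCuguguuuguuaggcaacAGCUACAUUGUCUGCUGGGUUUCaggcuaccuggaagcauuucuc

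Between 207 and 246 miRNAs were detected per array, a probe counting as detected when at least 0.5 of its spots, outlier-flagged spots left out, were well above background by the scanner software's own mark. No miRNA spot was saturated. With 3 arrays a group, precision is limited throughout. Where 3 values are given for a group, they are in the order of replicates 1 to 3. Arrays were scaled on the 300 probes that every array detected, by their 75th percentile, which was 203 to 221 on the ARM arrays and 225 to 290 on the control arrays, so scaling raised ARM signals against control signals. The negative control spots, 434 per array, averaged 1.79, 2.21 and 1.98 on the ARM arrays and 1.56, 1.26 and 1.13 on the control arrays. In these units, before scaling, every ARM array lay above every control array, and the low signals below are read against this background. ARM replicate 3 was alone on slide 2, and the other 5 arrays shared slide 1.

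Of the 4 members, only miR-221-3p was detected on any array. By the share of spots well above background, it was detected on the 3 ARM arrays and on no control array, through 1 of its 2 probes. By the scanner software's own mark for a detected miRNA, it was detected on all 6 arrays, and the other 3 members on none. Before scaling, the mean intensity of that probe, A_26_P00002590, was 19.3, 18.0 and 20.1 on the ARM arrays and 13.1, 16.0 and 13.3 on the control arrays. All ARM arrays lay above all control arrays. ARM averaged 19.2 ± 1.06 and control 14.2 ± 1.61 (SD, n = 3 each). The lowest signal of any detected probe on the control arrays was 14.74, 16.1 and 16.0, so each control value lay under the lowest signal that its array detected. On the ARM arrays that limit was 12.1, 14.65 and 11.8, lower than on any control array before scaling. Control replicate 2, at 16.0, read above all 3 ARM limits, so detection on the ARM arrays alone depends in part on the limit of each array.

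The spots of this probe spread widely within an array. Of its 8 spots, 6, 4 and 8 were well above background on the ARM arrays, and 1, 2 and 0 on the control arrays. In ARM replicate 2 the probe was at the limit of the rule, with 3 of its 6 unflagged spots well above background. The SD over unflagged spots was 4.53, 2.33 and 2.06 on the ARM arrays and 2.58, 1.60 and 1.60 on the control arrays, and the software's own error of a spot had a median of 3.46 to 3.87 over the 6 arrays. The group means thus lay about as far apart as single spots of ARM replicate 1 varied, and the separation rests on averages over the spots.

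The other probe of miR-221-3p, A_26_P00001505, was detected on no array. Its mean was 11.0, 11.7 and 11.6 on the ARM arrays and 6.85, 10.2 and 6.52 on the control arrays, with 1 spot well above background, in ARM replicate 3. The groups did not overlap here either, and before scaling, control replicate 2 lay nearest to ARM for both probes. On every array this probe stood above the mean of the negative control spots, although below detection.

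**Figure D1:**
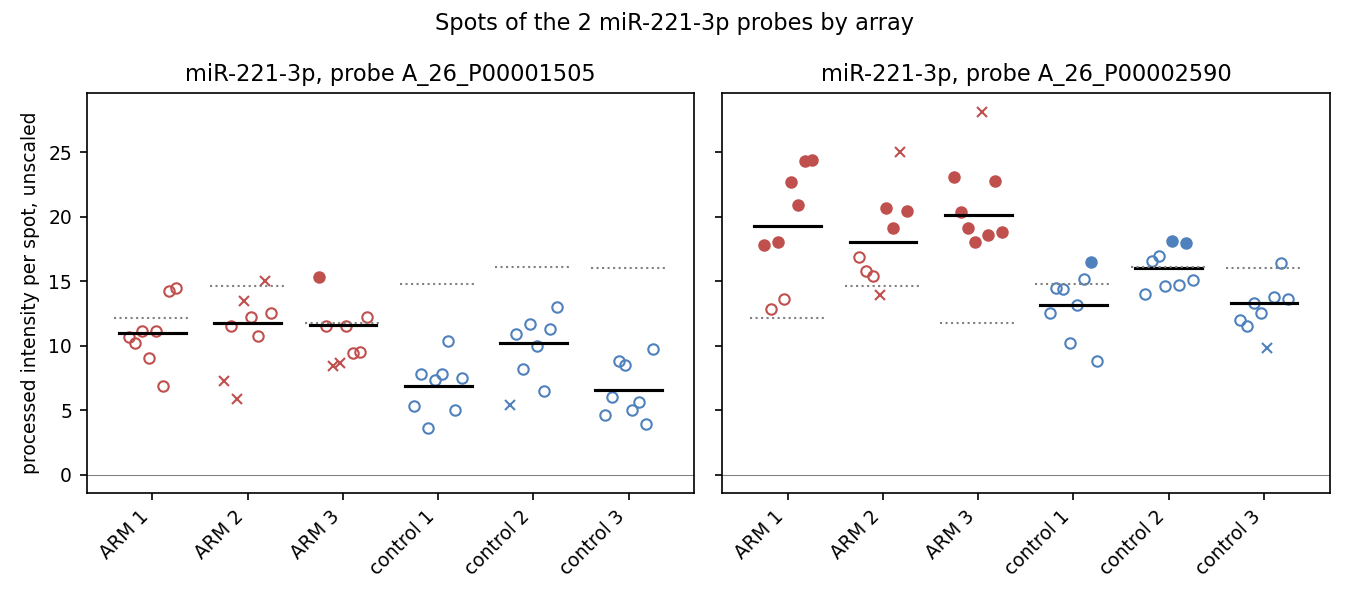
Processed intensity (y axis, unscaled) of each of the 8 spots of the miR-221-3p probes A_26_P00001505 (left) and A_26_P00002590 (right) on the 3 ARM arrays (red) and 3 control arrays (blue). Filled circles are spots well above background, crosses are outlier-flagged spots whatever their mark, black bars are means over unflagged spots, and dotted lines are the lowest mean of any detected probe on that array; only the right-hand probe reaches detection, on the ARM arrays.

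After scaling, the level of miR-221-3p, the mean of its 2 probes on the log2 scale, was 4.08, 4.03 and 4.02 on the ARM arrays and 2.95, 3.44 and 3.29 on the control arrays. The ARM arrays lay close together and above every control array, with means of 4.04 ± 0.03 and 3.22 ± 0.25 (SD, n = 3 each). Since no control array held it well above background, its fold has only a bound. For the detected probe, whose mean scaled intensity was 21.3 in ARM, it was at least 1.52-fold higher in ARM under the scaling used. Each control array was set to its lowest detected signal where the probe itself read lower. The scaling raised ARM signals against control signals, and no bound was taken without it. Unscaled, the measured difference of this probe was 0.44 on the log2 scale, less than the bound, which is 0.61 on that scale. On the scaled mean of both probes, setting the control arrays to their limits in the same way gave 1.18-fold. That is not a bound, since the other probe was detected on no array and the limits are those of single probes.

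miR-221-3p was among the tested miRNAs only through its detection on the 3 ARM arrays, the group in which it was higher, so the fits it entered that way give no independent support to the difference. In the fit over all 230 tested miRNAs, it had an adjusted p of 0.0385 (limma, Benjamini-Hochberg) and an SE of 0.19 on the log2 scale. In the fit without that filter its adjusted p was 0.173 (limma), and 0% of the 758 miRNAs passed, although 134 had an unadjusted p below 0.05. Of the 230 miRNAs, 2.17% passed as higher in ARM (5 miRNAs) and 13.5% passed in either direction, and for 26.1% the ARM arrays all lay above the control arrays (48.7% without overlap in either direction). In the fit over the 390 probes detected on at least 3 arrays, probe A_26_P00002590 had an adjusted p of 0.0391 (limma), where 2.05% of probes passed as higher and 14.9% in either direction. This probe, too, entered the fit only through the ARM arrays. In bulk tissue, a change in the number of cells that hold a miRNA and a change in its amount per cell cannot be told apart.

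miR-222-3p, which shares the seed of miR-221-3p, was not well above background on any spot of any array. Its probe A_26_P00001509 averaged 1.22, 0.37 and 1.41 on the ARM arrays and 0.48, 1.36 and -2.34 on the control arrays, before scaling. Its probe A_26_P00001508 averaged -0.71, -0.95 and 0.34 on the ARM arrays and -2.74, 0.56 and -2.49 on the control arrays. The groups overlapped for both probes, and every value lay below the mean of the negative control spots of its array except that of A_26_P00001509 in control replicate 2. None of its 96 spots over the 6 arrays was well above background, against 22 of the 96 spots of miR-221-3p. A difference between the groups was therefore not detectable for miR-222-3p, and no fold is given.

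The 5p arms, the strands that are mostly degraded when the 3p arm is kept, were at background as well. The probe means of miR-221-5p ran from -1.84 to 1.23 over the 6 arrays, and those of miR-222-5p from -2.94 to 1.43, with the groups overlapping for all 4 probes. Each had 1 spot well above background, and the software flagged both as outliers. That of miR-221-5p stood at 21.3 in control replicate 2, where the median of the probe's 8 spots was 0.49, and that of miR-222-5p at 30.6 in control replicate 3, where the median was 1.12. The 3 undetected members together had 19 of 36 probe means below 0, and 29 of 36 at or below the floor of 1 after scaling, where values have no order. None of the 3 entered the main fit. In the fit without the detection filter they were among the 758 miRNAs, of which 0% passed (limma).

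**Figure D2:**
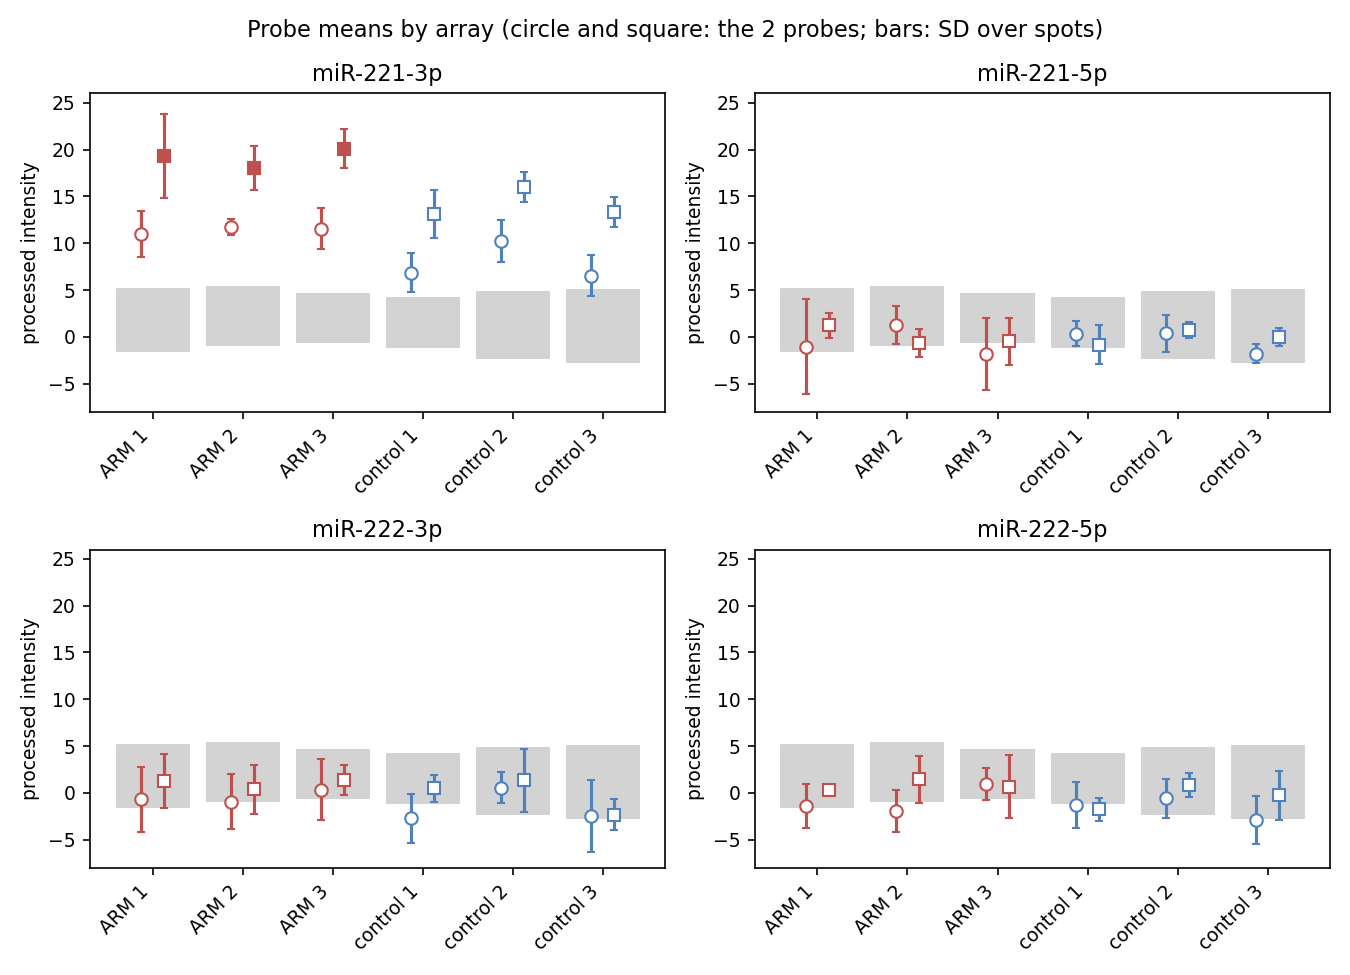
Mean processed intensity (y axis, unscaled) of both probes (circle and square) of each of the 4 members on the 3 ARM arrays (red) and 3 control arrays (blue), with the SD over unflagged spots as bars. Filled symbols are detected probes and grey bands are the mean ± SD of the negative control spots; only the means of miR-221-3p lie above the bands, some of the other means lie below them, and only on the ARM arrays is a probe of it detected.

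The scanner software also gives a total signal per miRNA, and for miR-221-3p it ran the other way. This total gene signal was 16.2, 16.1 and 17.2 on the ARM arrays and 126, 100.02 and 82.0 on the control arrays, before scaling. The software's total signals of the 2 probes, added up, were 16.2, 16.1 and 17.2 on the ARM arrays but 10.6, 13.8 and 10.6 on the control arrays. The total of the miRNA was thus the sum of its probes on the ARM arrays and many times that sum on the control arrays. Fitted on the total gene signal, the miRNA was called lower in ARM, at -2.31 on the log2 scale (limma, adjusted p = 0.0016), where 3.48% of the 230 miRNAs were called lower and 4.78% were called in either direction. In the fit on the sum of the probe totals, chosen after seeing the data, it passed as higher, at 0.82 (limma, adjusted p = 0.0332).

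The arrays also differed in the signal of probe A_26_P00001505 relative to its own error. Its total probe signal was 3.22, 3.25 and 3.77 times its error on the ARM arrays, and 2.04, 2.80 and 1.78 times its error on the control arrays. Across all arrays, each of the 169 to 197 miRNAs per array whose every probe exceeded 3 times its error had a total gene signal equal to the sum of its probes, within 1%. Of the 78 to 99 miRNAs per array with some probes over and some under that multiple, 0 had a total equal to the sum, and 73 to 88 had a higher one. The multiple of 3 was chosen after seeing these values. miR-221-3p fell into the first class on the ARM arrays and into the second on the control arrays, and the other 3 members, with no probe over the multiple on any array, were listed at 0.1 throughout.

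**Figure D3:**
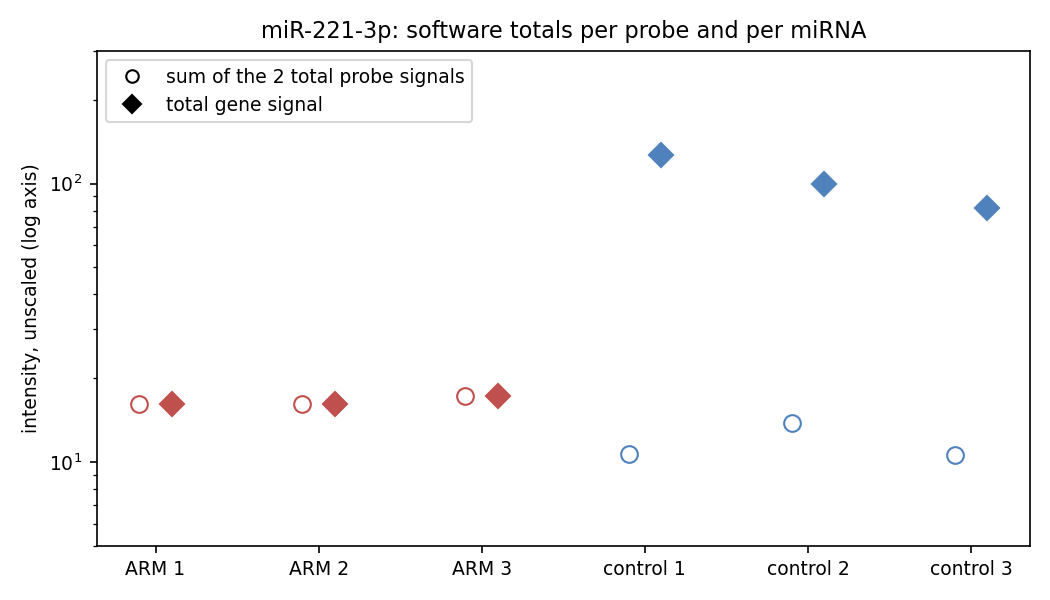
Unscaled intensity of miR-221-3p (y axis, log scale) on each of the 3 ARM arrays (red) and 3 control arrays (blue), as the sum of the software's total signals of its 2 probes (open circles) and as the software's total gene signal (diamonds). Circle and diamond coincide on the ARM arrays, and the diamonds stand far above the circles on the control arrays.

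Across the settings tried, the difference of miR-221-3p was positive in 21 of 22 alternatives, the total gene signal being the exception. It passed as higher in 9 of the 16 alternatives that kept all arrays and changed another choice, or fitted a subset by slide, but all 9 kept the filter that it met only through the ARM arrays. Among those that lost the call were no scaling (0.50, limma adjusted p = 0.0905), normexp background correction (0.32, limma adjusted p = 0.0825), and slide as a block or slide 1 alone (0.83 and 0.83, limma adjusted p = 0.0888 in both). Slide 2 held 1 array, which the block drops. Slide as a block, slide 1 alone and leaving out ARM replicate 3 were therefore the same fit, although counted apart among the 22. The brightest probe and the probes detected on at least 3 arrays also gave the same difference (0.75), that of probe A_26_P00002590 alone. With the mean of each array's negative control spots subtracted first, a setting chosen after seeing the data, the difference was 0.82 (limma, adjusted p = 0.0439). These differences include control values that were not well above background, so they are not folds. Leaving out 1 array at a time gave differences of 0.68 to 0.92, and the call held only without control replicate 3.

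**Figure D4:**
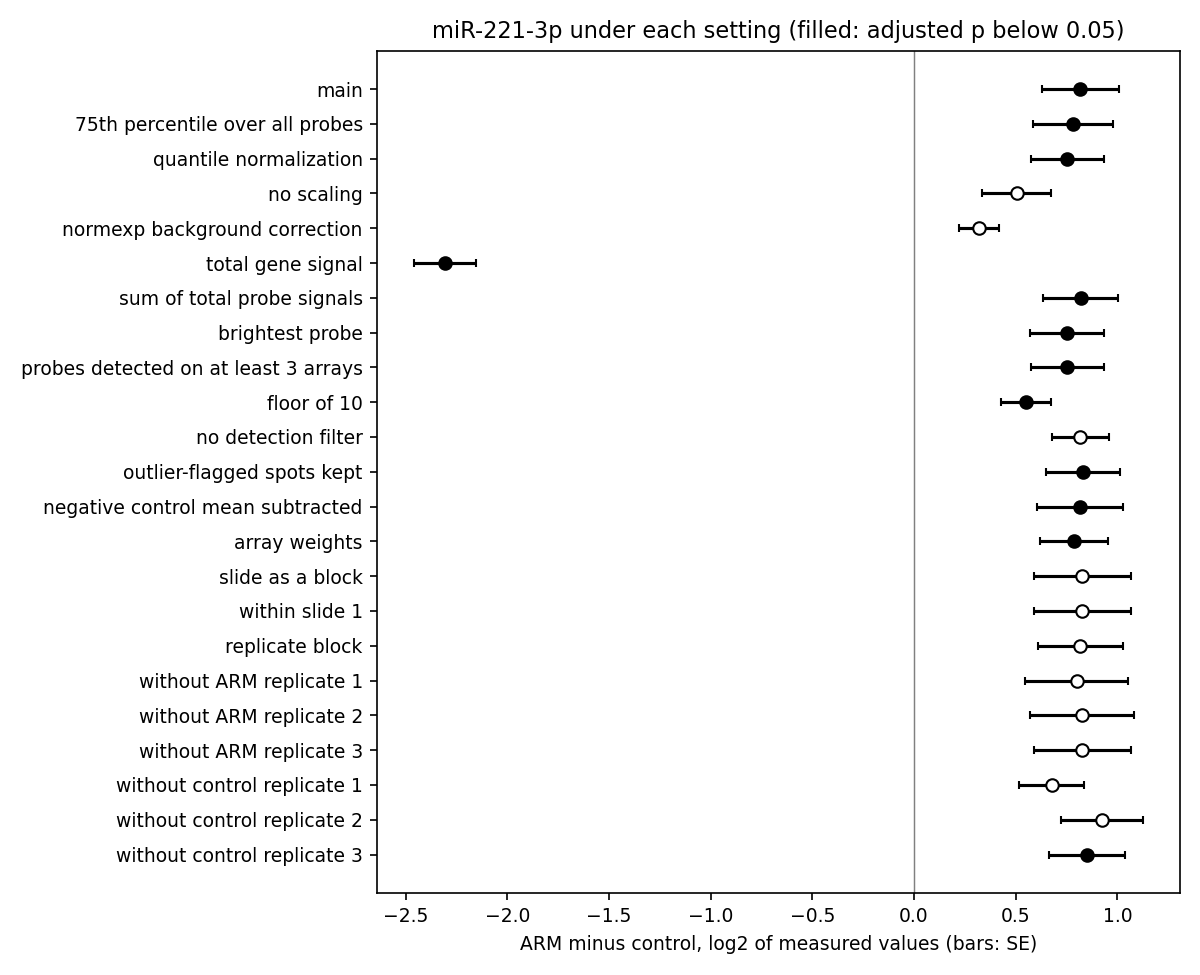
Difference of miR-221-3p, ARM minus control, in log2 of the measured values (x axis, bars are the SE) under the main setting and each of the 22 alternatives (y axis). Filled points have an adjusted p below 0.05 (limma); the total gene signal alone lies below 0.

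Levels over the 6 arrays that ran most like those of miR-221-3p belonged to miR-130b-3p (Pearson r 0.997), miR-92a-3p (0.995), miR-326-3p (0.992), miR-106b-5p (0.987) and miR-20b-5p (0.986), out of 229 other tested miRNAs. For all 5 the ARM arrays lay above the control arrays, as for 26.1% of the 230 tested miRNAs. Their choice by likeness to miR-221-3p, whose groups do not overlap, favours this, so it is no separate result. miR-130b-3p and miR-326-3p passed the fit, where 2.17% passed as higher in ARM. Like miR-221-3p, miR-326-3p entered the fit only through the ARM arrays. miR-92a-3p, miR-106b-5p and miR-20b-5p, of the miR-17-92 cluster and its paralogues, differed by 0.48 (SE 0.18), 0.53 (SE 0.17) and 0.62 (SE 0.20) and did not pass. The lowest correlations were with miR-532-3p (-0.950), miR-486 (-0.949), a red cell miRNA, and miR-99a-5p (-0.929), all of which fell in ARM. The points share their arrays, scaling factors and the group difference, and the correlations are given as a description.

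Detection on all ARM arrays and no control array was met by 4 of the 758 miRNAs, namely miR-221-3p, miR-326-3p, miR-129-2-3p and miR-30a-3p, by the share of spots well above background. The software's own mark was set on all 6 arrays for 3 of them, and for miR-326-3p on the 3 ARM arrays and 1 control array. The opposite pattern, all control arrays and no ARM array, was met by 0 under the same rule. Before scaling, the lowest detected signals were 11.8 to 14.65 on the ARM arrays and 14.74 to 16.1 on the control arrays. The rule thus reached lower signals on the ARM arrays, and the 2 counts are not read as a difference between the groups.

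Other miRNAs reported, mostly in human or mouse cells, to repress KIT or CDKN1B were detected, but none passed the fit, against 13.5% of all tested miRNAs. Of 12 stems listed, 11 were on the array, miR-193 without a letter was not, and miR-148a was not tested. All 5 tested KIT regulators had positive differences, as did 137 of all 230 tested miRNAs; without scaling 3 of the 5 and 86 of the 230 did. miR-193a-3p, a repressor of KIT in leukaemia cells, was at 0.42 (SE 0.18, limma adjusted p = 0.121), miR-193b-3p at 0.32 (SE 0.18), miR-218a-5p at 0.32 (SE 0.28), miR-494-3p of the imprinted Dlk1-Dio3 cluster at 0.28 (SE 0.23) and the p53 target miR-34a-5p at 0.13 (SE 0.17). The ARM arrays lay above the controls for miR-193a-3p and miR-193b-3p and overlapped them for the other 3 KIT regulators. Of the 5 tested CDKN1B regulators, 1 was positive. miR-196a-5p, which lies among the Hox genes, was at -0.88 (SE 0.32, limma adjusted p = 0.0906) and miR-152-3p at -0.54 (SE 0.21, limma adjusted p = 0.104), both with the ARM arrays below the controls. miR-181a-5p (-0.06, SE 0.22) and miR-24-3p (-0.04, SE 0.19) overlapped between the groups, and miR-148b-3p was at 0.34 (SE 0.19) with the ARM arrays above. Groups did not overlap for 2 of the 5 KIT and 3 of the 5 CDKN1B regulators, close to the 48.7% of all tested miRNAs. The median of the 10 tested members was 0.20, beside 0.17 for all tested miRNAs. Without scaling, the list median was -0.11 and that of all tested miRNAs -0.13.

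**Figure D5:**
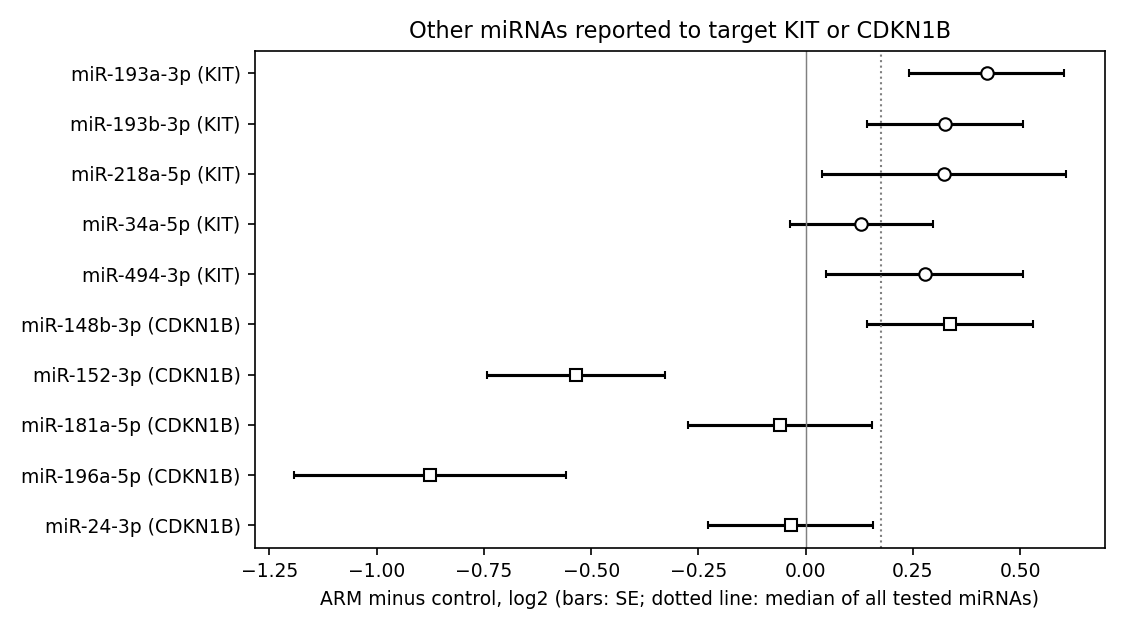
Difference between ARM and control in log2 level (x axis, bars are the SE from limma, n = 3 each) of the 10 tested miRNAs reported to target KIT (circles) or CDKN1B (squares). The dotted line is the median of all 230 tested miRNAs, at 0.17; no member passed the fit, and the 5 KIT regulators lie right of 0 on both sides of that line.

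Markers of the cell types in the piece moved between the groups beside miR-221-3p, and their part in its difference was not tested. All 3 striated muscle markers fell (miR-1-3p, miR-133b-3p and miR-206-3p), with a summed scaled intensity of 82.0 to 234 in ARM and 746 to 3353 in control, and so did the liver miRNA miR-122-5p, at 2.13 to 21.7 and 107 to 213. The red cell miRNAs miR-451-5p (-1.64, SE 0.30) and miR-486 (-1.78, SE 0.28), added after their values were seen, also fell (limma, adjusted p = 0.0330 each). The 4 intestinal epithelial markers summed to 1447 to 2332 in ARM and 450 to 1301 in control, with none passing the fit. The smooth muscle markers miR-143-3p and miR-145-5p summed to 774 to 824 and 469 to 806, so that the groups overlapped. The endothelial marker miR-126a-3p differed by -0.04 (SE 0.18), and its other arm was detected on no array. The leukocyte markers summed to 46.2 to 73.1 and 48.7 to 56.2, with 3 of 4 tested and none passing, and the mesenchymal miR-199a-3p and miR-214-3p to 2134 to 2604 and 2552 to 3368, with neither passing.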

How the data were processed

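Per the file headers, the authors used Agilent's Feature Extraction software, version 10.7.1.1, to give an intensity per spot after background subtraction and removal of spatial trends, with no scaling between arrays. The deposited value table held the same processed intensity, so the fit without scaling stands for it. Each array held 12843 features, 12128 of them miRNA spots. Control and outlier-flagged spots were left out and the spots of a probe averaged. Arrays were scaled to the 75th percentile of the 300 probes that every array detected, floored at 1 after scaling, converted to log2, and averaged over the probes of a miRNA. Of the tested values, 3.00% lay at or below the floor. miRNAs with a probe detected on at least 3 arrays (230) were fitted with limma 3.58.1 in R 4.3.3, ARM against control, calls being adjusted p-values (Benjamini-Hochberg) below 0.05. The fit was also run on simulated independent values, with added differences larger than that of miR-221-3p. That run therefore does not show how the fit handles a difference of its size near background. Alternatives were the scaling, background correction, summary per miRNA, floor, filter, outlier flags, array weights, slide, replicate block and leaving out each array. Subtracting the negative control mean and summing probe totals were added after seeing the data. Members, lists and tests were chosen with earlier results of these data known. The named miRNAs are the 4 members, the 5 with the highest and 3 with the lowest correlation with each tested member, a list of KIT and CDKN1B regulators (for each stem the arm with the higher mean level), and cell type markers. The 3 other miRNAs with the detection pattern of miR-221-3p were named after their values were seen. Names are those of the array design.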

Additional observations from a re-analysis of the deposited data

How the results depend on the processing

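For miR-221-3p the main difference was 0.82 (limma, adjusted p = 0.0385). Over the alternatives that kept its sign, the adjusted p ran from 0.0177 to 0.173 (limma). The sign turned with the total gene signal (-2.31, limma, adjusted p = 0.0016). The call was lost, with the sign kept, without scaling (0.50), with normexp background correction (0.32), without a detection filter (0.82; 758 miRNAs are then adjusted for), with slide as a block or within slide 1 (0.83; the block drops ARM replicate 3), and with a replicate block (0.82); the cause of the changes without scaling and with normexp was not tested. Leaving out 1 array gave 0.68 to 0.92. With detection required on all 6 arrays it was not tested. Probe A_26_P00002590 (0.75) lost the call with the percentile over all probes (0.72, limma, adjusted p = 0.052), without scaling (0.44), with normexp (0.33), with slide as a block or within slide 1 (0.75), and in 5 of 6 fits without 1 array (0.63 to 0.82), keeping it only without control replicate 3, as did miR-221-3p itself. The 31 calls over all miRNAs became 16 with normexp, 11 with the total gene signal, 47 with the sum of probe totals, 87 with array weights, and 0 with no detection filter, with slide as a block, within slide 1 or with a replicate block (limma; 134, 78, 78 and 73 had an unadjusted p below 0.05). Without 1 array they numbered 0 to 92: 92 without control replicate 3, 10 without ARM replicate 1, 6 without ARM replicate 2, and 0 without ARM replicate 3, control replicate 1 or control replicate 2 (limma; 78, 62 and 73 with an unadjusted p below 0.05). The split was 5 higher and 26 lower, 10 and 28 with quantile normalization, and 1 and 30 without scaling. The regulator list median (0.20) became -0.11 without scaling. The labels do not say whether the replicate numbers of the titles pair the samples. Of the arrays, 0 of 6 were closest to their own number, and deviations from the group means correlated at -0.07, -0.28 and -0.21 for numbers 1 to 3. With so few arrays, these values cannot exclude a pairing. Signals this close to the negative control spots limit what can be said of all 4 members.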
